A study of Oryctolagus cuniculus with 27 samples.

Results

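Aortic valve cusps of rabbits that had eaten a cholesterol and vitamin D2 diet for 4 weeks were compared with cusps of rabbits that had eaten it for 2 weeks. The comparison used 8 of the 27 RNA sequencing libraries of the series, 4 at each duration, taken by the titles of the libraries, and no control library entered it. All 8 came from wild-type male New Zealand rabbits fed 1% cholesterol with 3500 IU of ergocalciferol (vitamin D2). At sacrifice a single cusp was dissected, freed of most fat under magnification and rinsed of blood. The other libraries were valve cusps at 7 weeks of diet (n = 4), valve cusps of rabbits on normal chow (n = 4), ascending aorta and left ventricular myocardium. The ages of the animals, litters and cages are not in the labels. Each library carries a name of its own, and the p-values measure the spread between these libraries. Time on the diet and age cannot be told apart. The labels of the 4 chow libraries name other weeks than the design text does, so their ages are uncertain. The range of the chow and 7-week libraries is given below as a level, and those 8 libraries are compared with each other once, at the end.

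Aortic valve cusps consist of interstitial cells, which are fibroblast-like and can take on a contractile, actin-rich state, under a sheet of endothelium, in a matrix of collagen, proteoglycan and elastin. In cholesterol-fed animals monocytes enter the cusp, become macrophages and take up lipid, and macrophage proteases such as elastases and gelatinases cut the matrix. Mineral forms when promoters of bone formation outweigh inhibitors such as matrix Gla protein, and an excess of vitamin D raises the load of calcium and phosphate.

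The 8 libraries held 10.2 to 19.99 M counts. The mean totals were 16.4 M at 4 weeks and 15.8 M at 2 weeks (exact permutation test, two-sided, p = 0.83). Markers of the valve interstitial and fibroblast list took 1.08 to 1.45% of the counts at 2 weeks and 1.11 to 1.54% at 4 weeks, and those of the endothelial list 0.0535 to 0.100% and 0.0626 to 0.0979%. Both lists were thus detected in each library, but they do not tell a valve cusp from vessel wall. The smooth muscle and myofibroblast list took more, 4.80 to 7.60% at 2 weeks and 2.56 to 4.75% at 4 weeks. Heart muscle was present as well and differed among libraries. The ventricular and general cardiomyocyte list took 0.273 to 0.899% at 2 weeks and 0.418 to 3.59% at 4 weeks, with replicate 1 highest, and the atrial muscle list 0.973% in 4-week replicate 1 against 0.0756 to 0.236% in the other 4-week libraries. The share of RN18S, the 18S ribosomal RNA, separated the groups completely, from 1.36 to 1.97% at 2 weeks and from 0.282 to 0.516% at 4 weeks (exact permutation test, two-sided, p = 0.0286, the smallest that 4 against 4 libraries allow). RN18S share and diet duration thus cannot be told apart within these 8 libraries. Among the other valve libraries the share ran from 0.476 to 2.06% on chow and from 0.510 to 2.21% at 7 weeks. The running numbers at the end of the library names form an unbroken block for the 2-week group, with the 4-week libraries outside it, and whether these numbers mark preparation or sequencing order is not given.

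The genes higher at 4 weeks included 9 of 19 tested macrophage genes and 12 of 37 tested genes of cell division. Fewer genes were lower, among them HRH1, the histamine H1 receptor, and MYLK, a kinase of smooth muscle contraction. Of 14973 genes tested, 160 were higher at 4 weeks (1.07%) and 47 were lower (0.314%) by edgeR's quasi-likelihood test with Benjamini-Hochberg adjustment, threshold 0.05. The 4 libraries at 4 weeks did not overlap the 4 at 2 weeks for any of these 207 genes (1.38%), while 5.38% of all genes tested lay wholly above and 5.08% wholly below. The median log2 fold change of all genes tested was -0.01, and 1704 genes (11.4%) were higher and 1387 (9.26%) lower at an unadjusted p under 0.05, the background for the counts of list members at that level given below. The calls lie just inside the threshold, with adjusted p from 0.0323 to 0.0499, and they depend on single libraries. Without 4-week replicate 4 there were 694 higher and 291 lower genes, and without 4-week replicate 3 there were 10 and 6. Without any 1 of the other 6 libraries there were 0 or 1 higher and 0 to 3 lower genes, and 193 of the 207 genes kept their call in 1 of the 8 such fits. All 207 kept their direction in each of these 8 fits, with fold changes on the log2 scale 0.74 to 1.31 times those from all 8 libraries. With the RN18S share as a covariate 0 genes passed in either direction, 685 higher and 334 lower genes had an unadjusted p under 0.05 (1704 and 1387 without it), and 121 of the 207 kept their direction. In a fit over all 16 valve libraries, in which the RN18S shares of the chow and 7-week libraries overlap both ranges, the same covariate left 0 higher and 1 lower gene, with 974 and 736 at an unadjusted p under 0.05, and 204 of the 207 kept their direction. That fit was added after the data were seen. With the RN18S share the log2 fold changes of the 207 genes shrank in both fits. In the 16 libraries they were a median of 0.71 times those without it, from -0.084 to 2.09 times. In the 8 libraries the median was 0.083 times, from -0.72 to 2.36 times. Values below are CPM (counts scaled to a common library total, with TMM factors from the 16 valve libraries), listed in the order of replicates 1 to 4, with the log2 fold change, 4 weeks minus 2 weeks, ± its standard error (SE).

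Macrophage genes were higher at 4 weeks. Of 19 tested members of the macrophage list 9 rose and 0 fell, all 19 had a positive log2 fold change, and their median was 2.36 beside -0.01 over all genes tested. Without single libraries this median ran from 2.13 to 2.62, and the number that rose from 0 to 17. ITGAX, the integrin CD11c of macrophages and dendritic cells, measured 0.495, 1.17, 0.359 and 1.23 CPM at 2 weeks and 15.6, 18.6, 74.4 and 6.83 CPM at 4 weeks, a log2 fold change of 5.09 ± 0.82 (edgeR, adjusted p = 0.0453). Every 4-week library was above every 2-week library, with 4-week replicate 3 highest and replicate 4 lowest. Its partner ITGB2, the common beta chain of the leukocyte integrins, measured 6.43, 12.5, 3.02 and 13.5 CPM and then 74.6, 84.1, 206 and 27.7 CPM, a log2 fold change of 3.45 ± 0.66 (edgeR, adjusted p = 0.0468). MSR1, a scavenger receptor that takes up modified LDL, measured 1.40, 1.84, 0.934 and 1.13 CPM at 2 weeks and 7.81, 12.2, 20.6 and 4.92 CPM at 4 weeks, a log2 fold change of 3.09 ± 0.47 (edgeR, adjusted p = 0.0453). For both genes the 4-week libraries again lay above the 2-week libraries, with replicates 3 and 4 at the ends of the range.

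CD68, a lysosomal glycoprotein of macrophages, went from 11.2, 12.5, 13.2 and 22.2 CPM to 69.7, 74.1, 94.2 and 22.9 CPM, a log2 fold change of 2.13 ± 0.41 (edgeR, adjusted p = 0.0468). The groups met almost edge to edge, since 2-week replicate 4 and 4-week replicate 4 were nearly equal. LAPTM5, a lysosomal membrane protein of blood cells, rose by 2.49 on the log2 scale, from 51.5 ± 20.5 CPM to 291 ± 127 CPM (mean ± SD, n = 4 each). AIF1, an actin-binding protein of macrophages, rose by 2.36 on the log2 scale, and CD14, the lipopolysaccharide co-receptor and also a gene of the vitamin D response list, by 2.68. CD14 measured 6.18 to 20.8 CPM at 2 weeks and 25.6 to 128 CPM at 4 weeks. The whole macrophage list took 0.0179 to 0.0409% of the counts at 2 weeks and 0.0473 to 0.215% at 4 weeks, where replicate 4 was the lowest and the other 3 were at 0.119% or more. In whole cusps a change in the number of cells and a change in RNA per cell cannot be told apart. At 7 weeks the list took 0.117 to 0.165% and on chow 0.0247 to 0.0438%. With the RN18S share as a covariate the median of the macrophage list was -0.81 in the 8 libraries and 1.58, with 20 of 20 members positive and 0 called, in the 16.

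**Figure D1:**
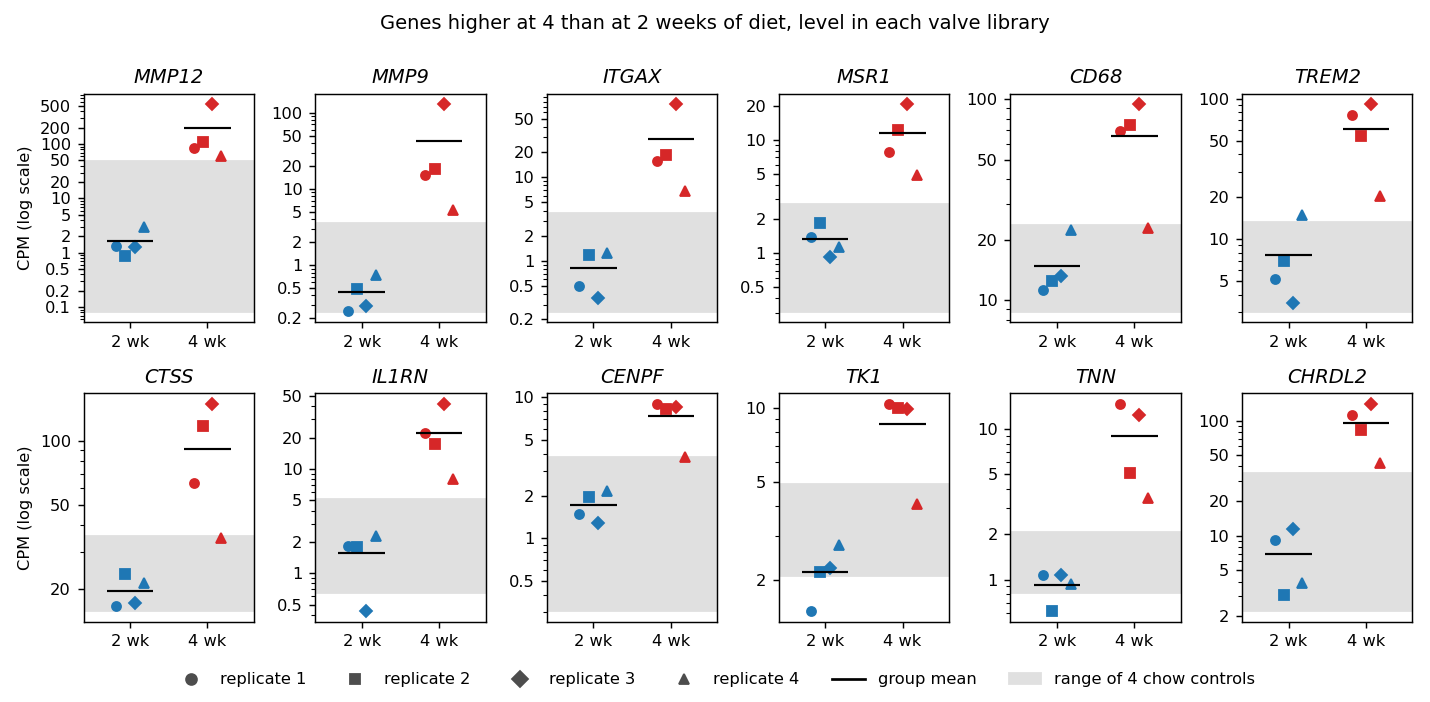
Level of 12 genes in each valve library, in CPM on a log axis, at 2 weeks (blue) and 4 weeks (red) of diet. Each symbol is 1 library, the bar is the mean of 4 and the grey band is the range of the 4 chow libraries. In all 12 panels the red symbols lie above the blue ones, and 4-week replicate 4 (triangle) is the lowest red symbol.

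Several genes with the largest changes are also expressed by macrophages and related myeloid cells. MMP12, the macrophage elastase, measured 1.32, 0.861, 1.29 and 3.00 CPM at 2 weeks and 85.6, 111, 538 and 59.2 CPM at 4 weeks, a log2 fold change of 6.90 ± 0.89 (edgeR, adjusted p = 0.0365). MMP9, a gelatinase, measured 0.247, 0.492, 0.287 and 0.738 CPM and 15.3, 18.3, 128 and 5.32 CPM, a log2 fold change of 6.47 ± 1.13 (edgeR, adjusted p = 0.0453). Replicate 3 held most of the 4-week signal of both genes, yet every other 4-week library was also above all 2-week libraries. On chow MMP12 ranged from 0.0816 to 48.96 CPM, so the 2-week libraries lay inside the chow range, and at 7 weeks it ranged from 37.1 to 106 CPM. CTSS, a cysteine protease of antigen-presenting cells that also cuts elastin, measured 16.7, 23.5, 17.2 and 21.4 CPM and 63.5, 118, 149 and 34.9 CPM, a log2 fold change of 2.21 ± 0.41 (edgeR, adjusted p = 0.0453). ATP6V0D2, a proton pump subunit typical of osteoclasts and macrophages, rose by 4.26 on the log2 scale, and CTSE, an aspartic protease of immune cells, by 3.97. CLEC5A, a myeloid C-type lectin receptor, rose by 4.35, and IGSF6, an immunoglobulin-type receptor of myeloid cells, by 3.35. SPN (CD43), a sialoglycoprotein of leukocytes, rose by 3.76, MATK, a kinase of blood cells, by 3.69, and LGALS9, the lectin galectin-9, by 3.38. SLC47A1, a membrane exporter of organic cations, had 1 of the lowest adjusted p (0.0323, edgeR), with 1.98, 3.07, 2.37 and 3.15 CPM at 2 weeks and 27.1, 38.7, 56.6 and 14.2 CPM at 4 weeks.

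Markers of lipid-laden macrophages moved unequally. Of 13 tested members of that list 3 rose (MMP12, ATP6V0D2 and TREM2) and 0 fell, with 9 positive and a median of 0.67. TREM2, a lipid-sensing receptor of foamy macrophages, measured 5.20, 6.95, 3.52 and 14.9 CPM at 2 weeks and 76.8, 53.7, 90.9 and 20.2 CPM at 4 weeks, a log2 fold change of 2.96 ± 0.55 (edgeR, adjusted p = 0.0453). The lowest 4-week library was still above the highest 2-week library. GPNMB, a glycoprotein of lipid-laden macrophages, had a log2 fold change of 2.85 ± 0.60 and did not pass (edgeR, adjusted p = 0.0552). SPP1 (osteopontin), which binds mineral and is also made by macrophages, measured 159 to 478 CPM at 2 weeks and 190.4 to 678 CPM at 4 weeks, a log2 fold change of -0.01 ± 0.44 (edgeR, adjusted p = 0.992), so its ranges overlapped widely.

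No gene of the 2 lists of cholesterol handling passed the test. Of 13 LXR targets and cholesterol efflux genes 0 were called, with a median of 0.42. The efflux transporter ABCG1 measured 2.52 to 7.08 CPM at 2 weeks and 5.37 to 18.6 CPM at 4 weeks, a log2 fold change of 1.599 ± 0.428 (edgeR, adjusted p = 0.0894). The log2 fold change was 0.84 ± 0.34 for ABCA1, the efflux transporter to apolipoprotein A-I, 1.498 ± 0.484 for PLTP, the phospholipid transfer protein, and 0.65 ± 0.16 for LPCAT3, which remodels membrane phospholipids. Of 22 cholesterol biosynthesis genes 0 were called and 0 had an unadjusted p under 0.05, with a median of -0.02. Examples were LSS, the lanosterol synthase, at -0.26 ± 0.15 and NSDHL, a sterol dehydrogenase, at 0.37 ± 0.20. CH25H, the cholesterol 25-hydroxylase, is in neither list and rose by 2.00 on the log2 scale, from 5.04 ± 1.53 CPM to 20.1 ± 8.11 CPM (mean ± SD, n = 4 each; edgeR, adjusted p = 0.0453).

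Leukocyte recruitment genes leaned upward with few calls. Of 22 tested chemokines and receptors 0 were called, 12 had an unadjusted p under 0.05 in the higher direction, and the median was 1.48. CCL2, the monocyte chemoattractant, measured 5.44, 1.91, 2.01 and 4.03 CPM at 2 weeks and 14.5, 17.8, 15.5 and 5.07 CPM at 4 weeks, a log2 fold change of 1.98 ± 0.46 (edgeR, adjusted p = 0.0653). Its 2 ranges overlapped only through 4-week replicate 4, and a second entry named MCP-1, an older name of this gene, is also listed, so its counts may be divided. MCP-1, which was not in the list as matched, rose by 3.48 on the log2 scale, from 0.293 ± 0.171 CPM to 3.41 ± 1.49 CPM (mean ± SD, n = 4 each; edgeR, adjusted p = 0.0453). CCR2, the receptor of CCL2, ranged from 0 to 1.17 CPM at 2 weeks to 3.41 to 10.5 CPM at 4 weeks, without overlap (edgeR, adjusted p = 0.0614). The log2 fold change was 4.58 ± 0.97 for CCR1, a chemokine receptor of monocytes and T cells, and 2.18 ± 0.47 for CCL7, another monocyte chemoattractant. In the leukocyte adhesion list 1 of 13 tested genes rose, SELPLG, the leukocyte ligand of P-selectin, from 4.52 ± 1.28 CPM to 29.5 ± 18.5 CPM (mean ± SD, n = 4 each). VCAM1, the endothelial and interstitial counter-receptor, had a log2 fold change of 1.01 ± 0.31 (edgeR, adjusted p = 0.117).

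Among 10 tested cytokine and inflammasome genes 1 rose, IL1RN, the natural antagonist of interleukin 1. IL1RN measured 1.81, 1.78, 0.431 and 2.26 CPM at 2 weeks and 22.0, 17.3, 42.4 and 8.08 CPM at 4 weeks, a log2 fold change of 3.81 ± 0.59 (edgeR, adjusted p = 0.0453). All 4-week libraries were above all 2-week libraries. SOCS3, a feedback inhibitor of cytokine signalling, had 0.85 ± 0.31 (edgeR, adjusted p = 0.168). In the interferon list 1 of 16 rose, OASL, an antiviral protein, by 2.57 on the log2 scale, with 14.8, 16.3, 5.07 and 5.07 CPM at 4 weeks. Replicates 1 and 2 were high and replicates 3 and 4 low, and IFIT3, another interferon-induced gene, had the same split, with 91.0, 99.6, 34.1 and 34.5 CPM at 4 weeks (edgeR, adjusted p = 0.0919). In the complement list 1 of 12 rose, C5AR1, the receptor of the C5a fragment on myeloid cells, from 5.30 ± 2.47 CPM to 36.9 ± 19.7 CPM (mean ± SD, n = 4 each), while C3AR1, the C3a receptor, had 1.78 ± 0.38 (edgeR, adjusted p = 0.0549).

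Other leukocytes were near the limit of detection. The neutrophil list took 0.000274 to 0.000785% of the counts at 2 weeks and 0.000951 to 0.00528% at 4 weeks, with 0 of 6 tested members called. The neutrophil alarmin S100A8 measured 0.761, 6.25, 2.48 and 0.703 CPM at 4 weeks, high in replicate 2. Of 6 tested T and B lymphocyte genes 0 were called. CD79A, a chain of the B cell receptor, measured 0.247, 0.553, 0.216 and 0.541 CPM at 2 weeks and 2.99, 4.52, 2.53 and 0.904 CPM at 4 weeks (edgeR, adjusted p = 0.0512), and IL7R, the interleukin 7 receptor, had 2.72 ± 0.61. Both were higher in every 4-week library than in any 2-week library, at levels of a few CPM.

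Genes of cell division made up the other large group. Of 37 tested cell cycle genes 12 rose and 0 fell, all 37 had a positive log2 fold change and 22 had all 4-week libraries above all 2-week libraries, with a median of 1.54. CENPF, a kinetochore protein, measured 1.48, 1.97, 1.29 and 2.16 CPM at 2 weeks and 9.03, 8.34, 8.53 and 3.76 CPM at 4 weeks, a log2 fold change of 2.08 ± 0.33 (edgeR, adjusted p = 0.0453). TK1, the thymidine kinase of S phase, measured 1.48, 2.15, 2.23 and 2.75 CPM and 10.4, 9.99, 9.93 and 4.07 CPM, a log2 fold change of 1.98 ± 0.34 (edgeR, adjusted p = 0.0453). In both genes 3 libraries at 4 weeks were close together and replicate 4 was lower, still above every 2-week library. PRC1, a protein of the dividing cell's midzone, rose by 1.86 on the log2 scale, and BUB1, a spindle checkpoint kinase, by 2.30, the latter from 0.197 to 0.575 CPM to 1.25 to 2.33 CPM. The list took 0.0152 to 0.0214% of the counts at 2 weeks and 0.0230% in 4-week replicate 4 against 0.0399 to 0.0418% in the other 3. Replicate 4 was also the 4-week library with the lowest macrophage share. Which cells carried these transcripts was not tested. With the RN18S share as a covariate the median of the cell cycle list was 0.13 in the 8 libraries and 0.64 in the 16, with 0 members called in both.

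Matrix genes moved in both directions. Of 41 tested genes of the extracellular matrix list 1 rose and 0 fell, with 20 positive, 21 negative and a median of -0.02, and 1 lay wholly above and 5 wholly below the 2-week libraries. Outside the list, HSPG2 (perlecan), a basement membrane proteoglycan, fell by 1.16 on the log2 scale, from 2075 ± 354 CPM to 928 ± 175 CPM (mean ± SD, n = 4 each). ADAMTSL4, a matrix protein that binds fibrillin microfibrils, fell by 1.10, and SMOC2, a calcium-binding matrix protein, by 1.14. TNN (tenascin-W), a matrix glycoprotein of developing bone and of stroma, measured 1.07, 0.615, 1.08 and 0.934 CPM at 2 weeks and 14.7, 5.13, 12.4 and 3.46 CPM at 4 weeks, a log2 fold change of 3.26 ± 0.50 (edgeR, adjusted p = 0.0453). The 2-week libraries were close together near 1 CPM and each 4-week library was above them. Its relative TNC (tenascin-C) had 1.75 ± 0.36 and did not pass (edgeR, adjusted p = 0.0517), with 26.02 to 48.6 CPM at 2 weeks and 46.7 to 161 CPM at 4 weeks. CHRDL2, a secreted antagonist of BMP that is in none of the lists, measured 9.15, 3.07, 11.4 and 3.88 CPM and 112, 83.5, 140.5 and 42.8 CPM, a log2 fold change of 3.79 ± 0.51 (edgeR, adjusted p = 0.0365). Its lowest 4-week library was several times the highest 2-week library.

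ELN (elastin) measured 5295, 3519, 7949 and 3447 CPM at 2 weeks and 1227, 1969, 2274 and 1531 CPM at 4 weeks. The 2-week libraries were all higher, but the log2 fold change of -1.53 ± 0.33 did not pass (edgeR, adjusted p = 0.0568). On chow ELN ranged from 846 to 2203 CPM, so it was the 2-week libraries that lay above the chow range. HAPLN1, which links hyaluronan to proteoglycan, had -0.86 ± 0.19 (edgeR, adjusted p = 0.0607), and COL1A1, the main fibrillar collagen chain, 0.44 ± 0.33 (edgeR, adjusted p = 0.498). Of 23 matrix proteases and inhibitors 2 rose (MMP9 and CTSS) and 1 fell. The one that fell was ADAMTS9, which cuts the proteoglycans versican and aggrecan, with 78.5, 60.2, 25.2 and 23.0 CPM at 2 weeks and 12.2, 10.3, 13.0 and 11.9 CPM at 4 weeks, a log2 fold change of -1.98 ± 0.38 (edgeR, adjusted p = 0.0468). The 2-week libraries differed among themselves, with replicates 1 and 2 well above replicates 3 and 4, while the 4-week libraries were close together. TIMP1, an inhibitor of matrix metalloproteinases, had 1.31 ± 0.30 and did not pass (edgeR, adjusted p = 0.0638).

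**Figure D2:**
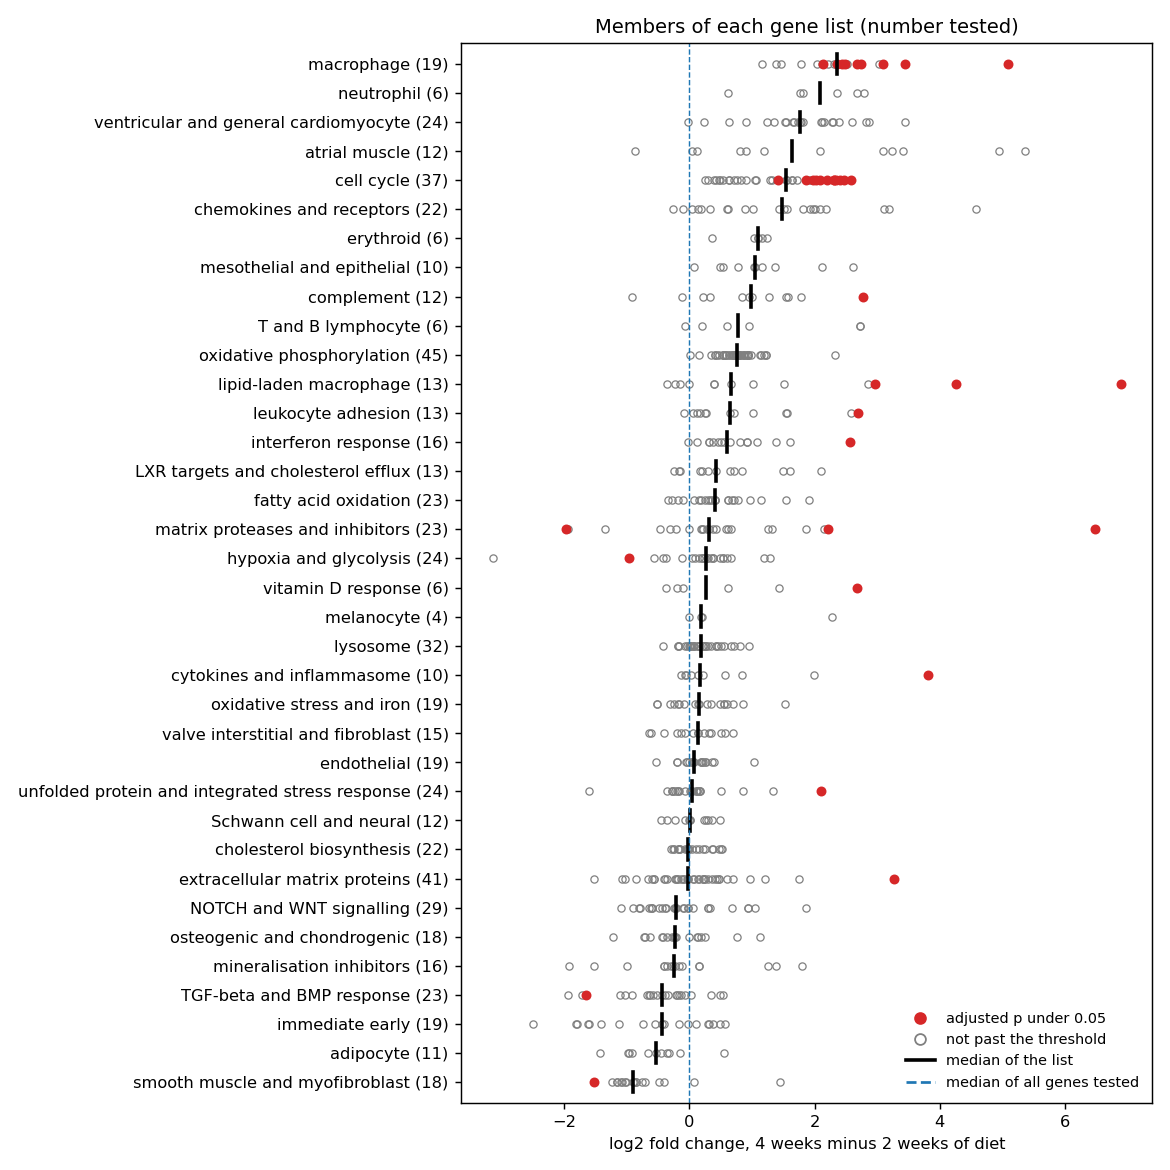
Log2 fold change, 4 weeks minus 2 weeks, of each tested member of the 36 gene lists, with the number tested in parentheses. Filled points passed the test, open points did not, the bar is the median of the list and the dashed line the median of all genes tested. The macrophage list has the highest median (2.36) and the smooth muscle and myofibroblast list the lowest (-0.90).

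Among the genes named that fell, C1QTNF7, a secreted C1q- and TNF-related protein, had the smallest SE. It measured 51.6, 69.9, 81.9 and 60.4 CPM at 2 weeks and 21, 23.0, 25.9 and 22.6 CPM at 4 weeks, a log2 fold change of -1.52 ± 0.16 (edgeR, adjusted p = 0.0323). It was 1 of 2 genes, with the unnamed locus LOC100341783, that kept their call in 4 of the 8 fits that left out a library, and the one gene called in the fit over 16 libraries with the RN18S share as a covariate. ATP10A, a flippase that moves phospholipids across the plasma membrane, measured 75.6, 65.4, 86.4 and 64.6 CPM and 25.6, 22.1, 36.6 and 32.9 CPM, a log2 fold change of -1.32 ± 0.18 (edgeR, adjusted p = 0.0430). HRH1, the histamine H1 receptor, measured 14.8, 7.81, 10.1 and 10.8 CPM and 2.38, 1.82, 3.41 and 2.41 CPM, a log2 fold change of -2.10 ± 0.27 (edgeR, adjusted p = 0.0365). In these 3 genes every 4-week library was below every 2-week library. The 2-week libraries of C1QTNF7 and ATP10A were also above the chow range, which was 19.9 to 34.7 CPM and 24.4 to 31.6 CPM. The same held for ADAMTS9 above and for AMIGO2, NPNT, LMCD1, MAFF, PER2 and BAMBI below. It did not hold for HRH1, MYLK, CTXN1, NUP160 and RN18S, whose 2-week libraries overlapped the chow range. On chow ADAMTS9 ranged from 6.02 to 17.1 CPM, with all its 4-week libraries inside, and PER2 from 8.18 to 16.4 CPM.

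The adhesion proteins AMIGO2, a leucine-rich repeat membrane protein, and NPNT (nephronectin), a matrix ligand of an integrin, fell as well. AMIGO2 went from 31.2, 19.6, 31.7 and 22.4 CPM to 6.95, 6.34, 11.3 and 10.8 CPM, a log2 fold change of -1.56 ± 0.25 (edgeR, adjusted p = 0.0453). NPNT went from 553, 409, 722 and 404 CPM to 116, 147, 204 and 249 CPM, a log2 fold change of -1.54 ± 0.29 (edgeR, adjusted p = 0.0453), and at 7 weeks it ranged from 59.7 to 167 CPM. For both genes 4-week replicates 1 and 2 were the lowest. LMCD1, a LIM protein that regulates transcription in muscle, fell by 1.39 on the log2 scale, MAFF, a small MAF transcription factor, by 1.51, and PER2, a core gene of the circadian clock, by 1.51. PER2 measured 30.5, 27.4, 19.4 and 42.1 CPM at 2 weeks and 9.23, 9.99, 15.6 and 7.23 CPM at 4 weeks, and the hour of dissection is not in the labels. CTXN1 (cortexin), a small membrane protein, fell by 1.68, and NUP160, a subunit of the nuclear pore, by 1.57. RN18S fell by 2.27, as its shares above show, and as a ribosomal RNA its count also depends on how the library was made.

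**Figure D3:**
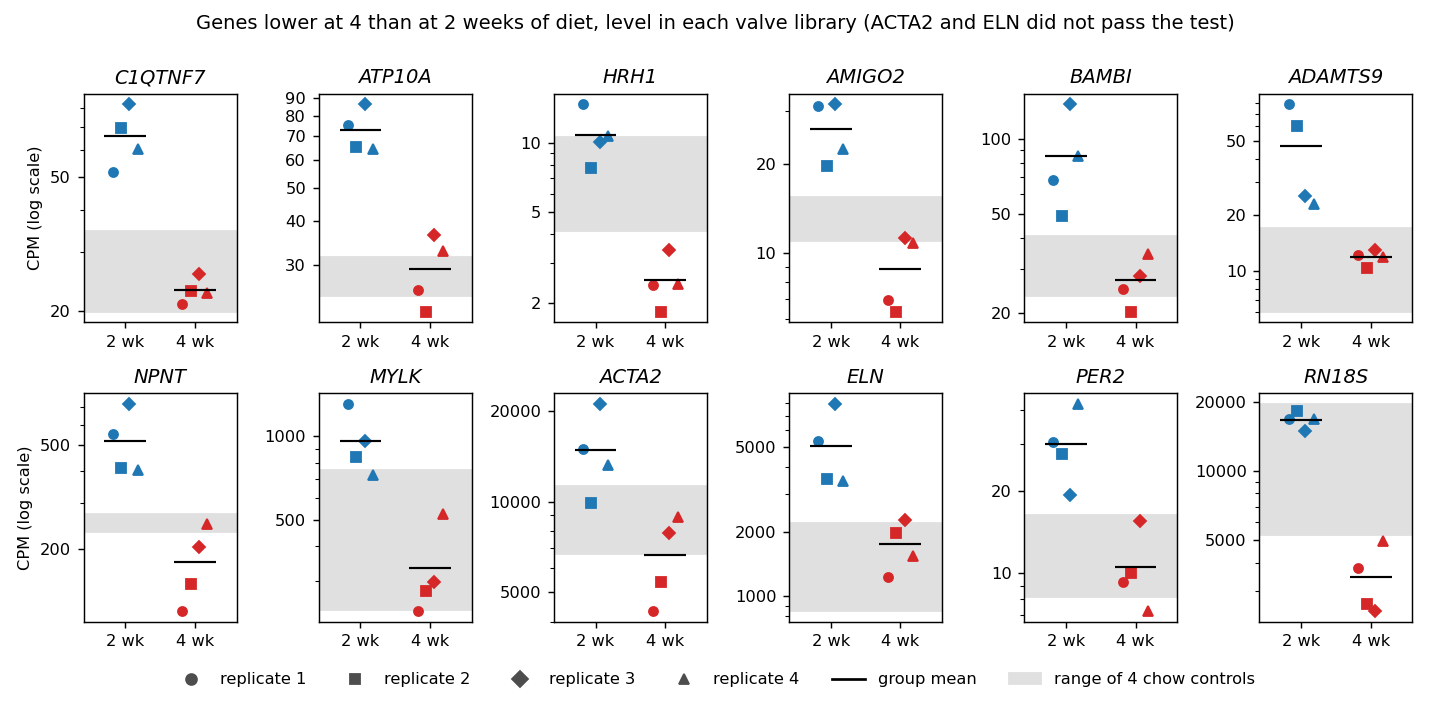
Level of 12 genes in each valve library, in CPM on a log axis, at 2 weeks (blue) and 4 weeks (red) of diet. Each symbol is 1 library, the bar is the mean of 4 and the grey band is the range of the 4 chow libraries. The red symbols lie below the blue ones in all 12 panels, including ACTA2 and ELN, which did not pass the test.

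Contractile genes leaned downward with 1 call. Of 18 tested genes of the smooth muscle and myofibroblast list 1 fell and 0 rose, 16 were negative, 15 had an unadjusted p under 0.05 in the lower direction and the median was -0.90. MYLK, the kinase that starts smooth muscle contraction, measured 1314, 842, 962 and 723 CPM at 2 weeks and 233, 277, 298 and 524 CPM at 4 weeks, a log2 fold change of -1.53 ± 0.29 (edgeR, adjusted p = 0.0468). ACTA2, the alpha actin of smooth muscle and activated interstitial cells, measured 14891, 9897, 21123 and 13246 CPM and 4326, 5419.8, 7872 and 8893 CPM, a log2 fold change of -1.16 ± 0.33 that did not pass (edgeR, adjusted p = 0.101). In both the 4-week libraries were all lower, with replicate 4 nearest to the 2-week group. CNN1 (calponin) had -1.23 ± 0.34, the smooth muscle actin ACTG2 -1.16 ± 0.29, and MYOCD (myocardin), the coactivator of the contractile genes, -1.03 ± 0.29, none of them past the threshold. The list took 4.80 to 7.60% of the counts at 2 weeks, 2.56 to 4.75% at 4 weeks and 3.52 to 5.72% on chow. It includes MYH11, the smooth muscle myosin, at a mean of 10284 CPM over the 8 libraries. Contractile interstitial cells and smooth muscle of attached vessel wall cannot be told apart in these libraries. Of 15 tested interstitial and fibroblast genes 0 were called, with FAP, a surface protease of activated fibroblasts, at -0.61 ± 0.19 and the proteoglycan LUM (lumican) at 0.70 ± 0.30. Of 19 endothelial genes 0 were called, with the junction protein ESAM at -0.54 ± 0.15 and NOS3, the endothelial nitric oxide synthase, at -0.05 ± 1.08.

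Signalling lists were negative on balance. Of 23 tested TGF-beta and BMP response genes 1 fell and 0 rose, 19 were negative and the median was -0.43. BAMBI, a decoy receptor that dampens TGF-beta and BMP signals, measured 68.0, 49.3, 137 and 84.9 CPM at 2 weeks and 25.1, 20.2, 28.3 and 34.6 CPM at 4 weeks, a log2 fold change of -1.65 ± 0.30 (edgeR, adjusted p = 0.0453). The 4-week libraries were all below the 2-week libraries, in which replicate 3 was highest. The ligand TGFB2 had -0.92 ± 0.20 (edgeR, adjusted p = 0.0591), and LTBP1, which stores latent TGF-beta in the matrix, -0.64 ± 0.20. Of 29 NOTCH and WNT genes 0 were called, with a median of -0.22. In that list the NOTCH ligand JAG1 had -1.09 ± 0.29, the NOTCH target HEY1 -0.90 ± 0.22 and the WNT target AXIN2 -0.81 ± 0.22, with adjusted p of 0.0862, 0.0702 and 0.0944 (edgeR).

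Genes of mineralisation gave no call in either direction. Of 18 tested osteogenic and chondrogenic genes 0 passed, with 1 higher and 4 lower at an unadjusted p under 0.05 and a median of -0.23. RUNX2, the master regulator of bone cells, measured 0.990, 1.599, 0.719 and 1.57 CPM at 2 weeks and 1.47, 2.78, 2.38 and 1.76 CPM at 4 weeks, a log2 fold change of 0.75 ± 0.37 (edgeR, adjusted p = 0.282). The ranges overlapped at a level near 1 to 3 CPM. SOX9, the regulator of cartilage cells, had -0.24 ± 0.23, the bone growth factor BMP2 -0.22 ± 0.19, and ALPL, the phosphatase that frees phosphate for mineral, 1.13 ± 0.45 (edgeR, adjusted p = 0.203). Of 16 tested inhibitors of mineralisation 0 passed, with a median of -0.24. MGP (matrix Gla protein) had -0.23 ± 0.31, TNFRSF11B (osteoprotegerin), which blocks osteoclast formation, -0.29 ± 0.26, and ENPP1, which makes the inhibitor pyrophosphate, -0.996 ± 0.291. SOST (sclerostin), a WNT inhibitor, measured 36.3, 46.4, 93.3 and 56.0 CPM at 2 weeks and 8.32, 14.9, 19.2 and 38.5 CPM at 4 weeks (edgeR, adjusted p = 0.112), and KL (klotho), the co-receptor of the phosphate hormone FGF23, 25.2, 9.22, 15.95 and 7.18 CPM and 1.83, 1.13, 3.41 and 8.53 CPM (edgeR, adjusted p = 0.131). Replicate 4 was the highest 4-week library of both genes and overlapped the 2-week range. At 7 weeks KL ranged from 0.456 to 0.701 CPM. VDR, the vitamin D receptor, had 1.43 ± 0.40 (edgeR, adjusted p = 0.0973), with 0.742 to 2.02 CPM at 2 weeks and 2.66 to 5.53 CPM at 4 weeks.

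Stress genes gave single calls. Of 24 genes of the unfolded protein and integrated stress response 1 rose, DDIT4, an inhibitor of mTORC1 induced by stress, with 73.8, 41.8, 33.3 and 48.2 CPM at 2 weeks and 271, 161, 314 and 101 CPM at 4 weeks, a log2 fold change of 2.10 ± 0.37 (edgeR, adjusted p = 0.0453). All 4-week libraries were above all 2-week libraries. SESN2, another stress-induced inhibitor of mTORC1, had 1.33 ± 0.27 (edgeR, adjusted p = 0.0524). Of 19 oxidative stress and iron genes 0 were called, with HMOX1 (heme oxygenase 1) at 1.53 ± 0.43 and the transferrin receptor TFRC at 0.70 ± 0.18. Of 24 hypoxia and glycolysis genes 1 fell, PFKP, a phosphofructokinase of glycolysis, from 192 to 262 CPM to 88.5 to 147 CPM (edgeR, adjusted p = 0.0479). The angiogenic factor VEGFA had 1.19 ± 0.27 and the glycolytic enzyme PGK1 0.54 ± 0.13, neither past the threshold. Of 32 lysosome genes 0 were called, with their regulator TFEB at -0.42 ± 0.13. Of 19 immediate early genes 0 were called, with a median of -0.44. FOS and EGR1, early transcription factors of that list, had -2.50 ± 0.74 and -1.81 ± 0.56. FOS measured 97.1, 70.9, 753 and 145 CPM at 2 weeks, where replicate 3 stood far above the rest, and it did so for EGR1 too.

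Respiratory chain genes leaned upward without a call, and so did the heart muscle lists, by more. Of 45 tested oxidative phosphorylation genes 0 were called, all 45 were positive, 37 had an unadjusted p under 0.05 and the median was 0.75. The complex I subunits NDUFA5 and NDUFB5 had 1.12 ± 0.26 and 0.85 ± 0.20 (edgeR, adjusted p = 0.0639 and 0.0703). Among 23 fatty acid oxidation genes 0 were called, and UCP2, a mitochondrial carrier, had 1.91 ± 0.44. The cardiomyocyte list had a median of 1.77 with 23 of 24 positive and 0 called, and the atrial list 1.64 with 11 of 12 positive and 0 called. The sarcomere myosin MYH7 measured 209, 781, 732 and 859 CPM at 2 weeks and 697, 2558, 483 and 2862 CPM at 4 weeks, high in replicates 2 and 4 and low in replicate 3. With the share of the cardiomyocyte list as a covariate the median of the oxidative phosphorylation list was 0.07, while that of the macrophage list was 2.62, of the cell cycle list 1.40 and of the smooth muscle list -0.59. The same covariate left 49 higher and 4 lower genes, of which 40 and 3 had been called without it, and the atrial share as a covariate left 0 and 0 (1285 and 817 at an unadjusted p under 0.05).

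Heart hormones and atrial genes varied widely among the 4-week libraries. NPPA, the atrial natriuretic peptide, measured 14.3, 44.1, 0.0719 and 36.8 CPM at 2 weeks and 3289, 89.9, 92.1 and 538 CPM at 4 weeks, and MYL4, the atrial light chain, 55.4, 369.8, 0.359 and 49.3 CPM and 3276, 109, 92.7 and 676 CPM. All 4-week libraries were above all 2-week libraries for NPPA and not for MYL4, replicate 1 held most of the 4-week signal of both, and neither passed (edgeR, adjusted p = 0.109 and 0.306). NPPB, the B-type natriuretic peptide, had 3.45 ± 0.96, HRC, a calcium-binding protein of the sarcoplasmic reticulum, 2.59 ± 0.72, and MYH8, a developmental myosin, 4.95 ± 1.32, while KCNA5, a potassium channel of atrial muscle, had -0.86 ± 0.24. Other tissues that can cling to a cusp gave 0 calls. The adipocyte list was negative in 10 of 11 genes, with CIDEA at -0.98 ± 0.38 and ADIPOQ (adiponectin) at -0.54 ± 0.43. The erythroid list was positive in 6 of 6, with the globin HBA at 1.10 ± 0.46 and the heme enzyme ALAS2 at 1.04 ± 0.36, and the mesothelial and epithelial list in 10 of 10, with the keratins KRT18 at 2.62 ± 0.67 and KRT19 at 2.11 ± 0.73. The neural adhesion molecule NCAM1 had -0.46 ± 0.19. The part of heart muscle, vessel wall, fat, blood and surface layers in the differences was not tested beyond the covariates named.

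**Figure D4:**
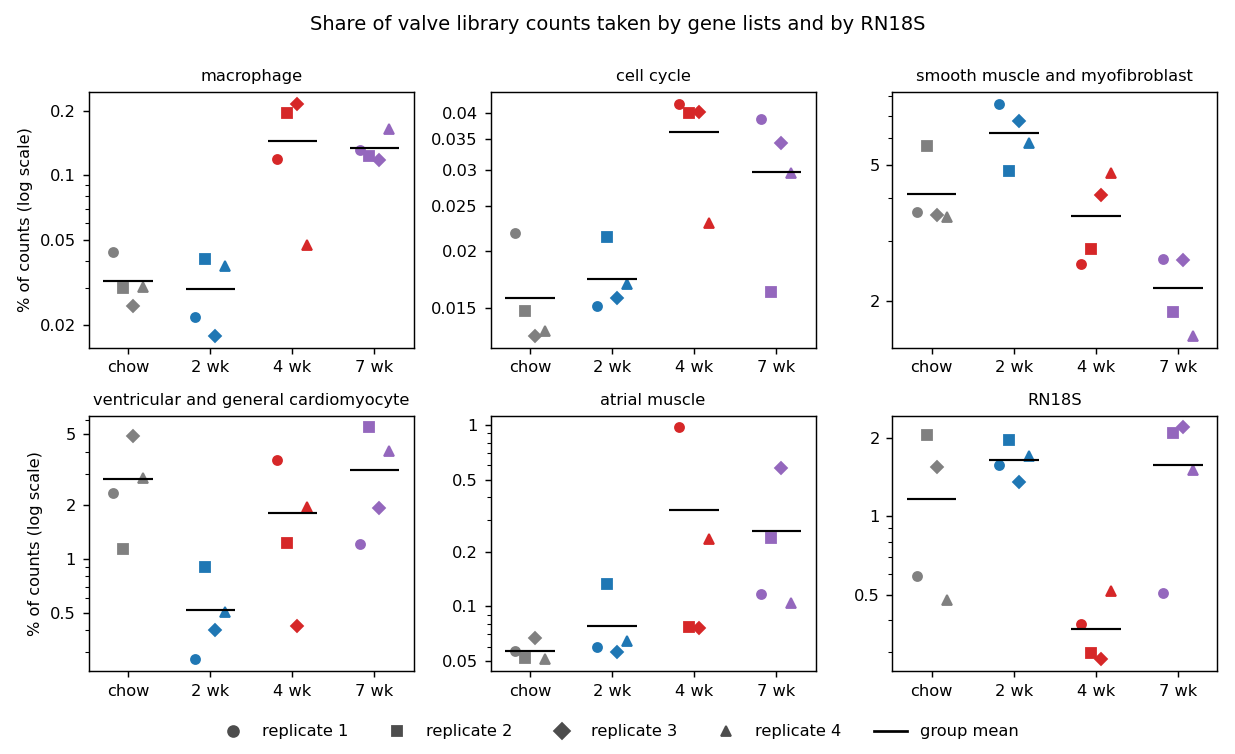
Percent of the counts of each valve library taken by 5 gene lists and by RN18S, on log axes, for chow, 2, 4 and 7 weeks. Each symbol is 1 library and the bar is the mean of 4. RN18S runs from 1.36 to 1.97% at 2 weeks and from 0.282 to 0.516% at 4 weeks, and the macrophage share is lowest among the 4-week libraries in replicate 4 (0.0473%).

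The genes called between 4 and 2 weeks were also looked up at 7 weeks of diet against chow, 2 groups that share no library with the former. This look was chosen after the data were seen. By the same edgeR test 697 of 14886 genes were higher at 7 weeks (4.68%) and 228 lower (1.53%). Of the 160 genes higher at 4 than at 2 weeks, 154 were tested there, 96 were called higher (62.3% of those tested, and 13.8% of the 697) and 153 had a positive log2 fold change, with a median of 2.16 beside 0.00105 for all genes. Of the 47 lower genes, all 47 were tested, 13 were called lower (27.7%, and 5.70% of the 228) and 43 were negative, with a median of -0.64.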

How the data were processed

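RNA of aortic valve cusps was sequenced from directional, single-end libraries, per the labels' protocols. The authors deposited expected counts per gene, from a table with 346 of 31346 genes taken out as myocardial (1.10%). The submitters' processing notes name RSEM 1.3.3, STAR 2.7.8a, edgeR 3.42.4, Trim Galore 0.6.6 and FastQC 0.11.9. Not given in the sources used here: genome build, annotation and strand setting. No coordinates or sequences are therefore given, and antisense reads cannot be told apart. Of the deposited values 10.0% were not whole, and all were rounded.

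The 4 libraries at 4 weeks and the 4 at 2 weeks were fitted with edgeR 4.0.16 in R 4.3.3: filterByExpr (minimum count 10, total 15), TMM, quasi-likelihood F test, two-sided, Benjamini-Hochberg over 14973 genes, threshold 0.05. CPM were scaled over 16 valve libraries. The script was tested on simulated counts for 4 against 2 weeks of diet, with 200 of 14973 genes changed, 50 at each size. It recovered 38% of genes changed by 1 on the log2 scale, 84% at 2, 98% at 3 and 98% at 4, with 5 false calls of 164. The simulation drew each gene independently, without differences shared by many genes of a library, so these rates may not hold for the real libraries.

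The comparison and the 36 gene lists (789 entries, 703 matched by symbol and 35 by LOC number through the RefSeq gene table) were chosen with earlier results of these data known. Lists are described by counts and medians, without a test. Genes named were first the 14 higher and 14 lower called genes with the largest change. These had a symbol, no overlap of groups and a mean of at least 5 CPM in the group with the higher mean. Added to them were up to 4 members of lowest p per list, and a fixed list of valve genes. From the last 2 sources a part is printed, chosen after the values were seen, as were MCP-1, CH25H, HSPG2, ADAMTSL4, SMOC2 and LOC100341783, and a few genes of the rule are not reported here. Alternatives were another tool (DESeq2 1.42.0), scaling, filters, tables, covariates, a replicate block, and leaving out each library. Aorta and myocardium were not analysed here.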

Additional observations from a re-analysis of the deposited data

Results flagged for a closer look

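A library stood far from the other 3 of its group, by Dixon's criterion at the 95% level for 4 libraries, in 20 of 276 sets of 4 values examined, and chance alone gives about 1 in 20.

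At 4 weeks, replicate 3 was high for the proteases MMP12 (538 CPM, others 59.2 to 111) and MMP9 (128 CPM, others 5.32 to 18.3), for the chemokine receptor CCR1 (20.4 CPM, others 2.21 to 4.00) and for ENPP1 (11.6 CPM, others 7.41 to 8.08). Replicate 4 was low for the cell cycle genes CENPF (3.76 CPM, others 8.34 to 9.03), TK1 (4.07 CPM, others 9.93 to 10.4) and BUB1 (1.25 CPM, others 2.18 to 2.33). The share of counts of the whole cell cycle list was low in the same library (0.0230%, others 0.0399 to 0.0418%). That library was high for BMP2 (6.43 CPM, others 4.86 to 5.07). Replicate 1 was high for NPPA (3289 CPM, others 89.9 to 538), VEGFA (148 CPM, others 88.6 to 98.3) and VDR (5.53 CPM, others 2.66 to 2.95).

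At 2 weeks, replicate 3 was high for the early genes FOS (753 CPM, others 70.9 to 145) and EGR1 (608 CPM, others 106 to 136) and for ESAM (111 CPM, others 86.4 to 88.8). It was low for AIF1 (3.23 CPM, others 6.84 to 7.44) and CCR2 (0 CPM, others 0.990 to 1.17). Replicate 2 was high for the atrial light chain MYL4 (369.8 CPM, others 0.359 to 55.4) and for the share of the atrial list (0.133%, others 0.0559 to 0.0642%), and low for TFEB (35.6 CPM, others 46.8 to 48.5).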

How the results depend on the processing

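The number of genes past the threshold depended on the setting far more than their direction did. The exception was the RN18S share as a covariate in the 8 libraries, where 121 of the 207 calls kept their direction. With that share in the 16 libraries 204 of the 207 did, at a median of 0.71 times their size. The 16-library fit called 497 higher and 195 lower, the DESeq2 Wald test 972 and 534, no filter on low counts 246 higher and 67 lower, and a minimum count of 50 called 6 and 5. RLE scaling gave 162 and 43, and putting back the genes removed as myocardial 153 and 43. The cardiomyocyte share as a covariate left 49 and 4, and the atrial share and the RN18S share left 0 and 0 each. The 16-library fit with the RN18S share, chosen after the data were seen, left 0 and 1. Leaving out 1 library gave 0 to 694 higher and 0 to 291 lower. A replicate block gave 0 and 0, with 1316 and 1051 at an unadjusted p under 0.05. The deviations of same-numbered libraries correlated at -0.153, 0.00478, -0.000929 and -0.239, and 0 of 4 pairs had its own number as best partner. This gave no sign that the numbers pair the libraries, but with 4 pairs the check cannot exclude it. Depth limits what can be called: genes of a few CPM rest on few counts per library.

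All 207 calls kept their sign where tested in every alternative without the RN18S share. With that share in the 8 libraries, log2 fold changes of opposite sign were MMP9 -3.29, ITGAX -1.04, CLEC5A -0.65, ATP6V0D2 -2.73, CTSE -0.23, CHRDL2 -0.62, MATK -0.32, ITGB2 -0.26, IGSF6 -0.24, MSR1 -0.27, AIF1 -0.38, CD68 -1.39, CD14 -0.75, GPNMB -3.07, ABCG1 -0.89, ABCA1 -0.86, LPCAT3 -0.18, NSDHL -0.14, LSS 0.28, CCL2 -1.66, CCR1 -1.75, CCL7 -1.15, SELPLG -1.04, VCAM1 -0.21, SOCS3 -2.55, S100A8 -4.41, IL7R -0.40, C5AR1 -0.72, C3AR1 -0.70, TNC -0.26, COL1A1 -0.99, CTSS -1.50, TIMP1 -1.30, SOX9 1.37, ALPL -1.55, BMP2 0.17, KL 0.38, JAG1 0.65, AXIN2 0.33, LUM -0.68, NOS3 5.53, TK1 -0.22, PRC1 -0.21, BUB1 -0.078, DDIT4 -0.11, HMOX1 -1.37, PGK1 -0.020, UCP2 -0.58, NCAM1 0.91, CH25H -1.19. In the 16 libraries they were ABCA1 -0.39, SOCS3 -0.057, COL1A1 -0.39, NOS3 0.36. Since the share separates the groups, the former extrapolates beyond the overlap of the groups. Genes near 0 changed sign elsewhere. SPP1 was 0.0025 with RLE scaling, 0.0079 with a minimum count of 50, 0.26 with the cardiomyocyte and 0.19 with the atrial covariate, and -0.50 to 0.22 in the fits without 1 library. MGP was 0.0019 with the atrial covariate and -0.40 to 0.061 without 1 library. NOS3 was 0.50 with the replicate block and -0.47 to 0.63 without 1 library.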
